A study of Mus musculus with 16 samples.

Results

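The genes described here are 41 genes of T cells and natural killer (NK) cells that are found among intraepithelial lymphocytes, the lymphocytes that sit between the epithelial cells of the gut. They were taken as the rows of the deposited count table that carry their symbols, and all 41 were found among 54392 symbols. The study sequenced RNA from colonocytes, the epithelial cells of the colon, of C57BL/6 mice kept for 3 weeks on food containing either corn oil and cellulose (9 libraries) or fish oil and pectin (7 libraries). Names of 10 libraries begin with GC, and the labels do not say what these letters mean. The diets were compared within these 10 libraries (corn oil/cellulose 5, 6, 7, 8 and 9, and fish oil/pectin 3, 4, 5, 6 and 7) and within the other 6 (corn oil/cellulose 1, 2, 3 and 4, and fish oil/pectin 1 and 2). All groups share the strain and the feeding time, and each library was made from 200 ng of total RNA with a stranded mRNA kit. The labels number the libraries as biological replicates but do not tie each to its own mouse, and the p-values therefore speak only of how far these libraries spread.

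Intraepithelial lymphocytes recognise antigen through a T cell receptor made of either an alpha and a beta chain or a gamma and a delta chain, which signals through the CD3 chains and the kinases Lck and Zap70. Many carry CD8 and hold ready-made cytotoxic granules, and they are kept in the epithelium by the integrin CD103, which binds E-cadherin on epithelial cells. In bulk RNA, fewer cells of a type and less RNA per cell cannot be told apart.

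The libraries held between 13996288 and 19512755 counts. Counts of 4 Y-linked genes marked all 6 libraries with other names as male, and marked 2 of the 5 GC-named corn oil/cellulose libraries (5 and 9) and 1 of the 5 GC-named fish oil/pectin libraries (3) as male. Fish oil/pectin library 7 had 11 counts of Hoxd13, a posterior homeobox gene, where the other 15 libraries had 416 to 1673. The numbers in the library names begin with 7 or with 8: GC-named corn oil/cellulose libraries 7, 8 and 9 have numbers beginning with 8, and all 5 GC-named fish oil/pectin libraries have numbers beginning with 7. Epithelial markers were abundant in every library: 12 genes including Epcam, keratins, Vil1 and Muc2 summed to 20758 to 35327 CPM (counts per 1000000 counts of a library's effective size).

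The members were low throughout. Their summed level was 129 to 256 CPM in the 5 GC-named corn oil/cellulose libraries, 51.8 to 104 CPM in the 5 GC-named fish oil/pectin libraries, 37.2 to 49.1 CPM in the 4 corn oil/cellulose libraries with other names and 43.2 and 50.9 CPM in the corresponding 2 fish oil/pectin libraries. Every GC-named corn oil/cellulose library lay above the remaining 11. Of the members, 35 were lower with fish oil/pectin in the GC-named libraries and 0 were higher (edgeR's quasi-likelihood test, Benjamini-Hochberg adjusted p under 0.05), beside 21.6% of the 14803 genes tested that were lower and 22.2% that were higher. The median log2 fold change of the 37 members tested was -1.54, against -0.00438 over all genes tested. In the other 6 libraries 0 members were called, where 0% of all genes were called by the same test. The members that could be tested are those that passed a filter on low counts, and 31 of the 37 also reached the filter's cut of 0.601 CPM in at least 2 of the 11 libraries outside the GC-named corn oil/cellulose group. The 6 that did not (Cd2, Cd27, Ccr9, Cxcr6, Ifng and Tbx21) passed only through the group where they are high, so that a difference was built into their selection.

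**Figure D1:**
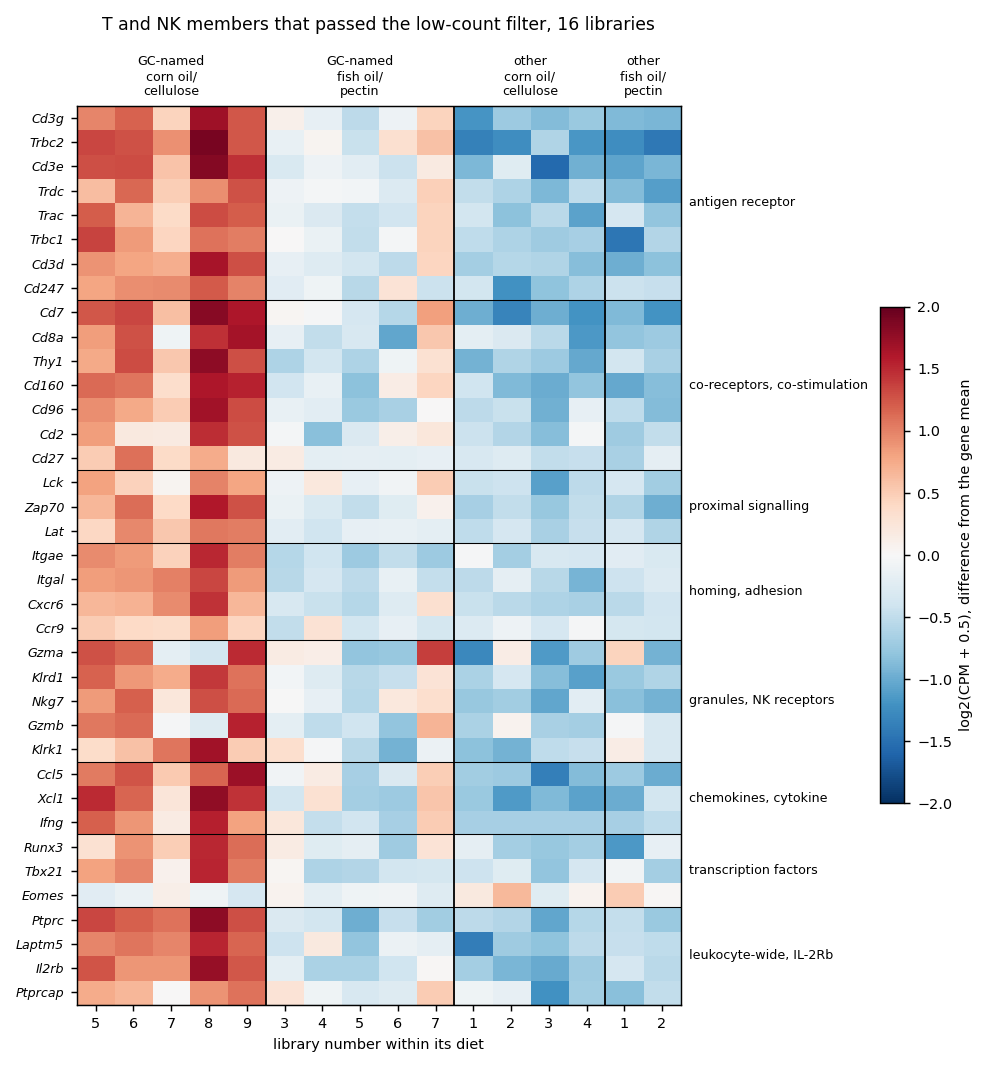
Level of the 37 members that passed the low-count filter (rows, by role) in 16 libraries (columns, numbered within their diet). Colour gives log2(CPM + 0.5) minus the gene's mean over all libraries. The 5 GC-named corn oil/cellulose libraries are above the mean for most members, with library 8 highest for 28 of the 37, and Eomes lacks this pattern.

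The antigen receptor genes are described first. The promoters of the CD3 genes and of Cd8a are shown because these genes code for the receptor complex and for the co-receptor whose levels are given next, and because Cd3g, Cd3d and Cd3e lie side by side on chromosome 9. The sequences are RefSeq windows on GRCm38.p6 that run from 250 bases before to 50 bases after the transcription start, written 5′ to 3′ on the gene's strand. Capitals mark matches on either strand to GGAAGT (a core letter string of ETS factors), AGATAA (of GATA factors) or TGTGGT (of RUNX factors). These strings share no letters in the 4 windows, and a match is only a match of letters.
Cd3g promoter (chr9:44980382-44980681, minus strand): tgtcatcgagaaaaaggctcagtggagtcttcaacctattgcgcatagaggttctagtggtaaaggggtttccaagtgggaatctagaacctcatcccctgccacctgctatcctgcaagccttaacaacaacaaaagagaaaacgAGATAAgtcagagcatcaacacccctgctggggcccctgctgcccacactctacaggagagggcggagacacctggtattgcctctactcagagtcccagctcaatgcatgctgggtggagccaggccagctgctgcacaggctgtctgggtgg
Cd3d promoter (chr9:44981536-44981835, plus strand): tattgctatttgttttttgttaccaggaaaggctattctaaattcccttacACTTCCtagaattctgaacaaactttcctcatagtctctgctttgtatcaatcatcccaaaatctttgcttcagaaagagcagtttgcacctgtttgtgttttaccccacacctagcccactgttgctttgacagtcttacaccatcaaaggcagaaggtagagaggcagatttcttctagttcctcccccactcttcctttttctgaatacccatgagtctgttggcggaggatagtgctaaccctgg
Cd3e promoter (chr9:45009562-45009861, minus strand): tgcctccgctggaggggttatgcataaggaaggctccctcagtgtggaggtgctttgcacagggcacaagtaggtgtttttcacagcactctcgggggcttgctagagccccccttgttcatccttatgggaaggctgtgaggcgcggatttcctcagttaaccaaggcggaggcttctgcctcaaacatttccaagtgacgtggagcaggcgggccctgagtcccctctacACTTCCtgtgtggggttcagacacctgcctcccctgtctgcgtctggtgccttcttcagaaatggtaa
Cd8a promoter (chr6:71373177-71373476, plus strand): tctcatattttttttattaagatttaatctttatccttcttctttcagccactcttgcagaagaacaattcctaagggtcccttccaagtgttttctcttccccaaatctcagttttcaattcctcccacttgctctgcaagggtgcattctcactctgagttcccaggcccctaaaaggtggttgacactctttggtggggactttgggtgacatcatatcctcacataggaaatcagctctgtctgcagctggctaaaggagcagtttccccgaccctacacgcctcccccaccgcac
The Cd3g and Cd3d windows point away from each other with 854 bases between them, and 27726 bases lie between the Cd3d and Cd3e windows. Cd3d and Cd3e each hold 1 ETS string on the minus strand of the window, Cd3g holds 1 GATA string, and Cd8a holds none of the 3 strings. RefSeq windows were matched for 25 of the 41 members (31 windows). The RUNX string was found in 41.9% of the member windows and in 16.8% of all 32851 windows, the ETS string in 41.9% and 23.8%, and the GATA string in 6.45% and 11.2%. These shares are descriptions with no test, and windows of 1 gene can overlap.

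All 8 antigen receptor genes (Cd3d, Cd3e, Cd3g, Cd247, Trac, Trbc1, Trbc2 and Trdc) were lower with fish oil/pectin in the GC-named libraries, beside 21.6% of all genes tested. Cd3g (ENSMUSG00000002033.14, chr9:44969572-44980431, minus strand, GRCm38) codes for the CD3 gamma chain. Its level in the GC-named corn oil/cellulose libraries 5 to 9 was 7.5, 8.73, 5.04, 12.6 and 9.05 CPM, and in the GC-named fish oil/pectin libraries 3 to 7 it was 3.84, 3.14, 2.31, 3.29 and 5.04 CPM. Corn oil/cellulose library 7 met fish oil/pectin library 7, so the groups touched at that value. In the other libraries Cd3g was at 1.3, 1.95, 1.74 and 1.92 CPM with corn oil/cellulose and at 1.71 and 1.65 CPM with fish oil/pectin. The log2 fold change was -1.29 ± 0.22 (SE) in the GC-named libraries (edgeR adjusted p = 0.000213). Among libraries with other names it was -0.03 ± 0.36 (edgeR adjusted p = 0.975).

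Cd3e (chr9:44998740-45009627, minus strand), the CD3 epsilon chain, was at 6.07, 6.18, 3.51, 9.17 and 6.93 CPM in GC-named corn oil/cellulose libraries 5 to 9 and at 1.68, 2.03, 1.83, 1.51 and 2.55 CPM in GC-named fish oil/pectin libraries 3 to 7. The groups did not overlap, and the log2 fold change was -1.73 ± 0.27 (edgeR adjusted p = 9.68e-05). The other libraries gave 0.95, 1.78, 0.419 and 0.893 CPM with corn oil/cellulose and 0.799 and 0.935 CPM with fish oil/pectin. Trbc2 (chr6:41546730-41548352), a constant region of the beta chain, was at 6.26, 5.94, 4.53, 9.49 and 5.8 CPM against 1.92, 2.29, 1.45, 2.83 and 3.51 CPM in the same GC-named libraries. Here too every corn oil/cellulose library was higher than every fish oil/pectin library, by 2.68 fold in the fit (log2 fold change -1.42 ± 0.24, edgeR adjusted p = 0.000209). Trbc1 and Trbc2 are near-identical in their coding sequence, so the authors' counting may have divided or dropped reads between them.

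Genes of both receptor kinds moved. Trac, the alpha chain constant region, was at 4.59, 3.03, 2.36, 4.96 and 4.62 CPM with corn oil/cellulose and 1.5, 1.31, 1.08, 1.18 and 2.49 CPM with fish oil/pectin in the GC-named libraries, with 1 overlap, between corn oil/cellulose library 7 and fish oil/pectin library 7 (log2 fold change -1.37 ± 0.27, edgeR adjusted p = 0.000568). Trdc, the delta chain constant region, was at 2.97, 4.52, 2.68, 3.79 and 4.99 CPM and 1.62, 1.7, 1.67, 1.38 and 2.66 CPM. Its groups did not overlap, with fish oil/pectin library 7 just under corn oil/cellulose library 7 (log2 fold change -1.06 ± 0.21, edgeR adjusted p = 0.000685). The log2 ratio of Trdc to Trac within a library was -0.0275 ± 0.42 (SD, n = 5) with corn oil/cellulose and 0.21 ± 0.16 (SD, n = 5) with fish oil/pectin. That ratio did not differ beyond the spread (exact two-sided permutation p = 0.294, adjusted p = 0.694 over 26 ratio tests). Cd247, the zeta chain that carries most of the complex's signalling motifs, was at 1.74, 1.96, 1.98, 2.51 and 2.06 CPM against 0.6, 0.719, 0.376, 1.05 and 0.453 CPM, with no overlap (log2 fold change -1.69 ± 0.29, edgeR adjusted p = 0.000221). In the other libraries Cd247 had 0.5, 0.0573, 0.24 and 0.343 CPM with corn oil/cellulose and 0.456 and 0.44 CPM with fish oil/pectin.

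**Figure D2:**
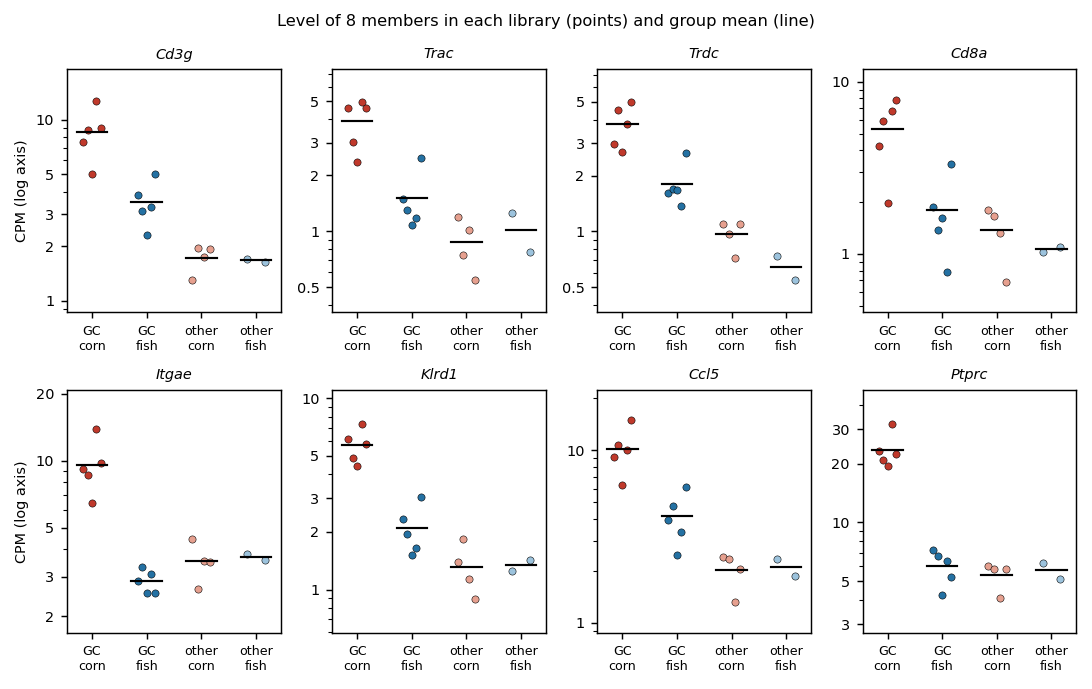
CPM (log axis) of 8 members in each library (points), by name form and diet, with the arithmetic group mean (line). The GC-named corn oil/cellulose libraries stand highest in each panel on average, and their range clears that of the GC-named fish oil/pectin libraries for Trdc, Itgae, Klrd1, Ccl5 and Ptprc.

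Of the 11 co-receptor and co-stimulation genes, 7 passed the filter. All 7 of these were lower with fish oil/pectin in the GC-named libraries, beside 21.6% of all genes tested. Cd7, a surface protein of T and NK cells and the most abundant of this role by CPM, was at 17.4, 18.7, 10.98, 26.2 and 22.7 CPM with corn oil/cellulose and 7.32, 6.99, 5.49, 4.6 and 12.8 CPM with fish oil/pectin in the GC-named libraries. The groups crossed only where fish oil/pectin library 7 exceeded corn oil/cellulose library 7 (log2 fold change -1.37 ± 0.25, edgeR adjusted p = 0.000413). In the other libraries Cd7 lay between 2.52 and 3.59 CPM. Cd8a, the CD8 alpha chain, was at 4.21, 5.88, 1.98, 6.72 and 7.86 CPM and 1.86, 1.37, 1.61, 0.789 and 3.34 CPM. The same pair of libraries crossed (log2 fold change -1.56 ± 0.36, edgeR adjusted p = 0.00241). Thy1, a surface protein of T cells, was at 3.59, 5.47, 3, 7.84 and 5.43 CPM and 1.08, 1.37, 1.08, 1.77 and 2.49 CPM with no overlap (log2 fold change -1.70 ± 0.27, edgeR adjusted p = 0.000114). Cd96 and Cd160, receptors of T and NK cells, Cd2, an adhesion receptor, and Cd27, a co-stimulatory receptor, had log2 fold changes between -1.77 (Cd96) and -1.42 (Cd27). Of these, Cd2 and Cd27 passed the filter only through the GC-named corn oil/cellulose group, so that a difference was built into their selection.

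The 4 members that did not pass the filter were Cd8b1, Cd4, Cd5 and Cd28, with 0 to 10 counts in any library. Cd8b1, the CD8 beta chain, summed to 26 counts in the 5 GC-named corn oil/cellulose libraries, 6 in the 5 GC-named fish oil/pectin libraries, 6 in the 4 other corn oil/cellulose libraries and 4 in the 2 other fish oil/pectin libraries. The same sums for Cd8a were 450, 153, 97 and 38. Per kilobase of exon, Cd8a stood at 1.47 CPM and Cd8b1 at 0.215 CPM in the GC-named corn oil/cellulose group, and Cd4, the helper cell co-receptor, stood at 0.0368 CPM. Cd5, an inhibitory receptor of T cells, and Cd28, the main co-stimulatory receptor, stood at 0.0631 and 0.0317 CPM per kilobase. Per length, Cd8a was thus above each of the other 4 genes of this comparison in that group, and no fold change is given for the 4 that did not pass.

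The 3 signalling genes were lower as well, beside 21.6% of all genes tested, with Lck changing least. Lck, the kinase that phosphorylates the CD3 chains, was at 13.2, 10.2, 7.59, 14.99 and 13.05 CPM with corn oil/cellulose and 6.78, 8.49, 6.45, 6.97 and 10.7 CPM with fish oil/pectin in the GC-named libraries, and the groups overlapped. Its log2 fold change was -0.59 ± 0.19 (edgeR adjusted p = 0.0182), and the call was lost without corn oil/cellulose library 8 or without fish oil/pectin library 5. Zap70, the kinase that docks on phosphorylated CD3, was at 2.79, 3.98, 2.23, 5.76 and 4.49 CPM and 1.38, 1.18, 0.968, 1.25 and 1.7 CPM with no overlap (log2 fold change -1.57 ± 0.24, edgeR adjusted p = 8.88e-05). Lat, the membrane adaptor that Zap70 phosphorylates, was at 1.3, 2.14, 1.47, 2.29 and 2.25 CPM and 0.66, 0.523, 0.699, 0.723 and 0.68 CPM, also without overlap (log2 fold change -1.52 ± 0.22, edgeR adjusted p = 5.5e-05).

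All 4 homing and adhesion genes were lower with fish oil/pectin in the GC-named libraries, beside 21.6% of all genes tested. None of the 4 had overlapping groups there, where 13.6% of all genes tested were lower without overlap. Itgae, which codes for CD103, was at 9.17, 8.61, 6.44, 13.9 and 9.74 CPM with corn oil/cellulose and 2.88, 3.33, 2.53, 3.09 and 2.55 CPM with fish oil/pectin (log2 fold change -1.74 ± 0.19, edgeR adjusted p = 1.14e-05). In the other libraries it was at 4.45, 2.64, 3.53 and 3.5 CPM and 3.82 and 3.58 CPM, a range that the GC-named fish oil/pectin libraries overlapped. Itgal, the alpha chain of the leukocyte integrin LFA-1, had a log2 fold change of -1.82 ± 0.21 (edgeR adjusted p = 1.39e-05). Cxcr6, a chemokine receptor of tissue lymphocytes, and Ccr9, the receptor for the gut chemokine Ccl25, had log2 fold changes of -1.71 and -1.76, with Ccr9 at most 0.907 CPM in any library. Both passed the filter only through the GC-named corn oil/cellulose group, so that a difference was built into their selection.

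The granule and NK receptor genes split. Klrd1, the CD94 chain of NK receptors, was at 6.13, 4.87, 4.4, 7.36 and 5.74 CPM with corn oil/cellulose and 2.34, 1.96, 1.51, 1.64 and 3.06 CPM with fish oil/pectin in the GC-named libraries, without overlap (log2 fold change -1.44 ± 0.21, edgeR adjusted p = 6.02e-05). Nkg7, a granule membrane protein, and Klrk1, the activating receptor NKG2D, were lower too (log2 fold changes -1.22 and -1.94). Gzma, which codes for the granule protease granzyme A, was not called: it was at 7.19, 6.59, 2.3, 1.97 and 8.43 CPM in corn oil/cellulose libraries 5 to 9 and 3.06, 3.01, 1.34, 1.38 and 7.82 CPM in fish oil/pectin libraries 3 to 7. The highest and lowest of each diet overlapped widely, with corn oil/cellulose library 8, which was highest for most members, lowest here (log2 fold change -0.66 ± 0.55, edgeR adjusted p = 0.355). Leaving out both that library and fish oil/pectin library 7, a choice made after seeing the data, gave -1.48 (adjusted p = 0.0301).

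Gzmb, granzyme B, followed Gzma across libraries, at 3.66, 3.92, 1.47, 1.17 and 5.31 CPM with corn oil/cellulose and 1.26, 0.915, 1.02, 0.657 and 2.72 CPM with fish oil/pectin. Libraries 7 and 8 of corn oil/cellulose were low and library 9 was high, and the groups overlapped (log2 fold change -1.22 ± 0.42, edgeR adjusted p = 0.0279). That call was lost when any of corn oil/cellulose libraries 5, 6 and 9 was left out, and likewise for fish oil/pectin libraries 3, 4, 5 and 6, with log2 fold changes of -1.66 to -0.94 over all libraries left out in turn. The log2 ratio of Gzma to Cd3e ran from -1.97 (corn oil/cellulose library 8) to 0.27 with corn oil/cellulose and from -0.34 to 1.45 (fish oil/pectin library 7) with fish oil/pectin, and it did not pass the test (exact two-sided permutation p = 0.159, adjusted p = 0.557).

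**Figure D3:**
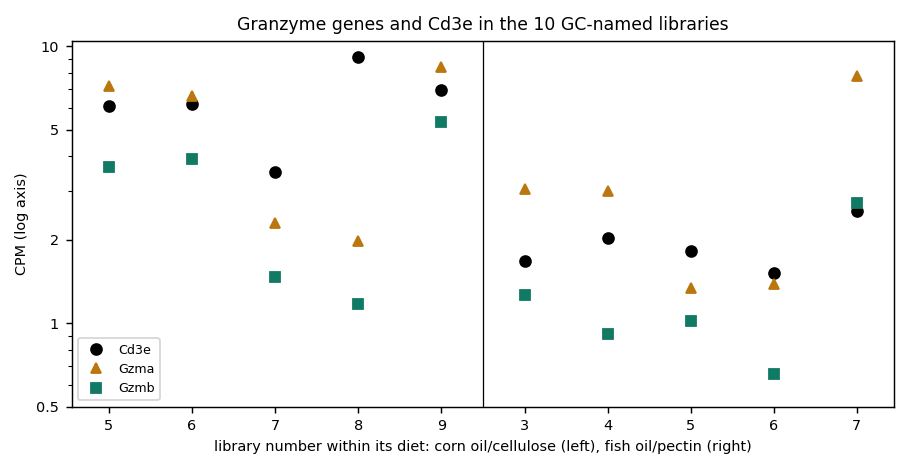
CPM (log axis) of Cd3e, Gzma and Gzmb in the 10 GC-named libraries. In corn oil/cellulose library 8 Cd3e is at its highest while Gzma and Gzmb are at 1.97 and 1.17 CPM, and in fish oil/pectin library 7 Gzma is at 7.82 CPM with Cd3e at 2.55 CPM.

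The 3 chemokine and cytokine genes were lower with fish oil/pectin in the GC-named libraries, beside 21.6% of all genes tested. Ccl5, a chemokine made by memory T and NK cells, was at 9.17, 10.8, 6.25, 10.03 and 14.9 CPM with corn oil/cellulose and 3.96, 4.77, 2.47, 3.35 and 6.12 CPM with fish oil/pectin, without overlap by a narrow margin (log2 fold change -1.31 ± 0.24, edgeR adjusted p = 0.000345). Xcl1, a chemokine that draws dendritic cells, was at 6.13, 4.75, 2.3, 7.52 and 5.93 CPM and 1.32, 2.42, 0.968, 0.92 and 2.95 CPM, with overlap at library 7 of corn oil/cellulose (log2 fold change -1.64 ± 0.33, edgeR adjusted p = 0.00083). Ifng, interferon gamma, summed to 91 counts in GC-named corn oil/cellulose, 21 in GC-named fish oil/pectin, 0 in corn oil/cellulose libraries with other names and 1 in the fish oil/pectin libraries with other names. Against the 3 counts that a count of 0 allows over the 4 other corn oil/cellulose libraries, the GC-named corn oil/cellulose mean was 23.4-fold higher. That figure covers the counting error of the 0 only, not that of the 91 counts, and its limit is scaled to total counts. Ifng passed the filter only through the GC-named corn oil/cellulose group, so that a difference was built into its selection.

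Among the transcription factors, Tbx21, which codes for T-bet, had a log2 fold change of -2.21 ± 0.39 (edgeR adjusted p = 0.000267), having passed the filter only through the GC-named corn oil/cellulose libraries. It went from 1.36, 1.6, 0.638, 2.56 and 1.69 CPM with corn oil/cellulose to 0.6, 0.196, 0.215, 0.329 and 0.34 CPM with fish oil/pectin, without overlap. Runx3, a factor of CD8 lineage cells, was at 1.18, 2.02, 1.4, 3.36 and 2.43 CPM and 1.02, 0.653, 0.699, 0.329 and 1.13 CPM, also without overlap (log2 fold change -1.43 ± 0.37, edgeR adjusted p = 0.00493). Eomes, a T-box factor related to T-bet, was at 0.248, 0.297, 0.447, 0.32 and 0.187 CPM and 0.42, 0.261, 0.323, 0.329 and 0.227 CPM in the GC-named libraries and at 0.5, 0.86, 0.24 and 0.412 CPM and 0.742 and 0.385 CPM in the others. Its groups overlapped, and the log2 fold change of 0.055 ± 0.40 was not called (edgeR adjusted p = 0.924).

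The 3 genes shared by many leukocytes and Il2rb were all lower with fish oil/pectin in the GC-named libraries, beside 21.6% of all genes tested. Ptprc (chr1:138062861-138175708, minus strand), which codes for CD45, was at 23.2, 20.97, 19.5, 31.95 and 22.5 CPM with corn oil/cellulose and 7.2, 6.73, 4.25, 6.31 and 5.27 CPM with fish oil/pectin in the GC-named libraries. The lowest corn oil/cellulose library exceeded the highest fish oil/pectin library, and the log2 fold change was -1.99 ± 0.16 (edgeR adjusted p = 2.23e-06). The other libraries gave 6, 5.73, 4.07 and 5.77 CPM and 6.22 and 5.12 CPM, overlapping the range of the GC-named fish oil/pectin libraries. Laptm5, a lysosomal protein of leukocytes, and Il2rb, a receptor chain for IL-2 and IL-15, had log2 fold changes of -1.503 ± 0.20 and -1.78 ± 0.20 (edgeR adjusted p = 2.87e-05 and 1.28e-05). Ptprcap, which binds CD45, fell by 0.85 on the log2 scale with an adjusted p of 0.0377 (edgeR), a call lost when any of corn oil/cellulose libraries 5, 6, 8 and 9 was left out, and likewise for fish oil/pectin libraries 4, 5 and 6. The log2 ratio of Trac to Ptprc was -2.47 ± 0.27 (SD, n = 5) with corn oil/cellulose and -1.70 ± 0.46 (SD, n = 5) with fish oil/pectin. The difference of 0.77 had the smallest p that 5 against 5 libraries allow (exact two-sided permutation p = 0.00794) and did not pass after adjustment (adjusted p = 0.0688). The ratios of Cd5 to Cd3e and of Cd4 to Cd3e differed by 1.08 and 1.32 with the same p and adjusted p (exact permutation), but Cd4 and Cd5 were near 0, where the added 0.5 CPM sets much of a ratio. The other 23 ratio tests did not pass either.

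**Figure D4:**
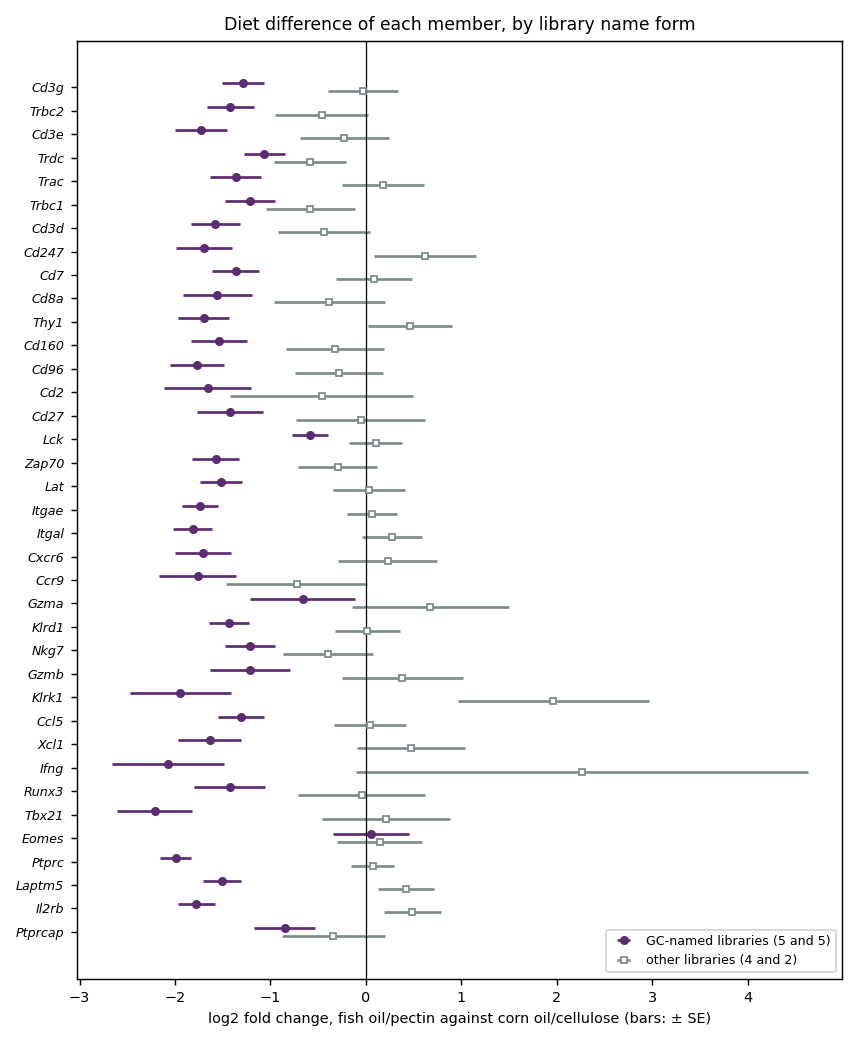
Log2 fold change of each member that passed the filter (fish oil/pectin against corn oil/cellulose, bars ± SE), in the GC-named libraries (filled circles, 5 and 5 libraries) and in the other libraries (open squares, 4 and 2 libraries). The filled circles lie between -2.21 and 0.055, and the open squares lie between -0.72 (Ccr9) and 2.26 (Ifng, at 0 counts in the corn oil/cellulose libraries of that set), with wider bars.

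In the GC-named libraries the groups did not overlap for 22 of the 37 members tested, all lower with fish oil/pectin, beside 13.6% of all genes tested. The 5 GC-named corn oil/cellulose libraries exceeded all 11 remaining libraries for 22 members, beside 1.68% of all genes tested. Both counts include Cd27, Ccr9, Cxcr6 and Tbx21, which passed the filter only through the group where they are high. Leaving out each of the 16 libraries in turn, 32 of the 35 members stayed called in every fit that tested them. The 3 that lost the call in some fit were Lck, Gzmb and Ptprcap. Ccr9, among the 32, did not pass the filter without corn oil/cellulose library 5 or without library 8, so it was not tested there. Among the GC-named libraries, corn oil/cellulose library 8 was the highest of its diet for 28 members and library 7 the lowest for 27, while fish oil/pectin library 7, with the low Hoxd13 count, was the highest of its diet for 26. Without both corn oil/cellulose library 8 and fish oil/pectin library 7, a choice made after seeing the data, 35 of the 36 members tested were lower, beside 19.4% of all genes.

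The sexes and the number series move with the diets in these libraries. With sex as a covariate, 33 members were lower (median log2 fold change -1.54), beside 20.4% of all genes. Among libraries whose numbers begin with 7, where corn oil/cellulose libraries 5 and 6 stood against fish oil/pectin libraries 3 to 7, 28 of the 36 members tested were lower, beside 10.3% of all genes. With female libraries only (3 and 4), 27 of the 34 tested were lower, beside 2233 of all 13932 genes tested. With male libraries only, the GC-named groups hold 2 and 1 libraries, and the lone fish oil/pectin library was assumed to vary like the other groups. Ptprc alone was then called among the members, beside 0.0333% of all genes lower (5 of 15003), and the members' median was -1.57. A single diet term over all 16 libraries with no term for the name form called 9 members lower, beside 14.9% of all genes.

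In the other 6 libraries, edgeR called 0 members at an adjusted p under 0.05, 0 had an unadjusted p under 0.05, and DESeq2 and limma's voom also called 0 members, beside 0.331% of all genes lower and 0.345% higher with DESeq2 and 4.29% and 7.18% with voom. By unadjusted p under 0.05, 16.3% of all genes passed there. Of the members, 16 had a negative and 21 a positive log2 fold change, with a median of 0.0436. Groups of these 6 libraries did not overlap for 1 member lower with fish oil/pectin (Ccr9, beside 17.3% of all genes) and for 3 higher (Klrk1, Laptm5 and Il2rb, beside 17.1%). With 4 against 2 libraries, an absence of calls does not show that the diets acted alike.

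The difference of the diet effect between the GC-named and the other libraries was tested directly. It was negative for all 37 members tested and called for 10 (Cd247, Lat, Thy1, Itgae, Itgal, Klrd1, Klrk1, Ptprc, Laptm5 and Il2rb), beside 3.84% of all genes tested. The 37, but not the 10, include Cd2, Cd27, Ccr9, Cxcr6, Ifng and Tbx21, which passed the filter only through the GC-named corn oil/cellulose group. The difference in log2 fold change was -2.06 ± 0.28 for Ptprc (edgeR adjusted p = 0.00389) and -1.80 ± 0.32 for Itgae (adjusted p = 0.0121). This count rests on few libraries. Without corn oil/cellulose library 3, 4 or 8 it was 6, beside 1.31%, 2.2% and 2.1% of all genes lower. Without fish oil/pectin library 7 it was 16, beside 5.48% of all genes. Without fish oil/pectin library 1 or 2, both the count and the share of all genes were below those without corn oil/cellulose library 3. Where 1 of the 2 other fish oil/pectin libraries was left out, the remaining one was assumed to vary like the other groups. Ptprc alone was called in every such fit. Klrk1, with a difference of -3.90 ± 1.14, had only 0 to 3 counts in each corn oil/cellulose library with another name.

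The name forms were also compared within each diet, a comparison chosen after seeing the data. With corn oil/cellulose, 35 members were higher in the GC-named than in the other libraries and 0 lower, with a median log2 difference of 2.21, beside 7.15% of all genes that were higher and 6.74% that were lower. The 35 include Cd2, Cd27, Ccr9, Cxcr6, Ifng and Tbx21, which passed the filter only through the GC-named corn oil/cellulose group. For these genes a difference was built into their selection. With fish oil/pectin, 10 members were higher and 0 lower, with a median of 0.66, beside 20.2% and 18.8% of all genes. These comparisons share libraries with those of the diets. Trbc2 was higher by 3.04 with corn oil/cellulose (edgeR adjusted p = 5.14e-06) and by 2.08 with fish oil/pectin (adjusted p = 0.00114). Ptprc was higher by 2.13 with corn oil/cellulose (adjusted p = 5.18e-07), and with fish oil/pectin its difference was 0.066 (adjusted p = 0.84). All 6 other libraries were male, so name form and sex move together here. The summed member level was 187 and 220 CPM in the male GC-named corn oil/cellulose libraries 5 and 9. It was 37.2 to 49.1 CPM in the 4 male corn oil/cellulose libraries with other names. The part of sex in the difference between name forms was not tested.

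Other genes of T and NK cells were read from a list of 52, of which 36 passed the filter. In the GC-named libraries 32 were lower with fish oil/pectin and 0 higher, beside 21.6% and 22.2% of all genes tested. The median log2 fold change of the 36 was -1.42. How many of the 36 passed the filter only through the GC-named corn oil/cellulose group was not counted. Rgs1, a regulator of G protein signalling in lymphocytes, had -2.12 ± 0.20 (edgeR adjusted p = 8.58e-06). Ikzf3, a zinc finger factor of lymphocytes, and Gimap6, a GTPase of lymphocytes, had -2.53 and -1.57. Bcl11b, a zinc finger factor of T cells that other cells also express, had group means of 24.8 to 31.0 CPM.

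Genes through which the epithelium acts on intraepithelial lymphocytes, such as ligands and retention factors, were read from a list of 25. Of these, 23 were tested, 6 were lower with fish oil/pectin in the GC-named libraries and 2 were higher, with a median of -0.0935. The first share is near the 21.6% of all genes that were lower, and the second is under the 22.2% that were higher. Tnfrsf14, the HVEM receptor that binds Cd160, was lower by -0.97 ± 0.11 on the log2 scale (edgeR adjusted p = 1.57e-05). Btnl4, a butyrophilin-like protein of the gut epithelium, had -0.65 ± 0.11 (adjusted p = 0.000255), and Cd274, the ligand PD-L1, had -0.78. Clec2d, a lectin-like ligand of NK receptors, and Epcam, an epithelial adhesion protein, were higher, by 0.53 and 0.19. Cdh1, which codes for the E-cadherin that CD103 binds, was not called (-0.18 ± 0.086, edgeR adjusted p = 0.106). Ccl25, the ligand of Ccr9, was not called either (-0.14 ± 0.15, adjusted p = 0.478).

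Markers of other cell types were read beside the members, where 21.6% of all genes were lower and 22.2% higher in the GC-named libraries. B and plasma cell markers summed to 6.12 to 14.3 CPM in GC-named corn oil/cellulose and 3.28 to 8.27 CPM in GC-named fish oil/pectin libraries, with 1 of the 3 tested lower (Ighm, -1.58). The other 2 tested went the other way, with log2 fold changes of 0.79 and 1.08, and were not called. Myeloid markers summed to 44.6 to 57.4 CPM and 47.9 to 67.4 CPM, with 2 of the 9 tested lower (Itgax and Lyz2). Stromal and endothelial markers summed to 15.2 to 24.7 CPM and 10.99 to 17.6 CPM, with 1 of the 3 tested lower (Pdgfrb). In each of the myeloid and stromal lists 1 marker was at 0 in all libraries. Of 7 innate lymphoid cell markers, 6 were tested and 5 were lower, among them Ncr1 and Il7r, which the T and NK list also holds. Epithelial markers summed to 23111 to 25506 CPM and 28258 to 35327 CPM, so they did not overlap and were higher with fish oil/pectin. Of the 12, Krt8, Krt18, Krt19, Krt20, Cdx2 and Epcam were higher and Lgr5 was lower, and the part of the epithelial share in the members' result was not tested.

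**Figure D5:**
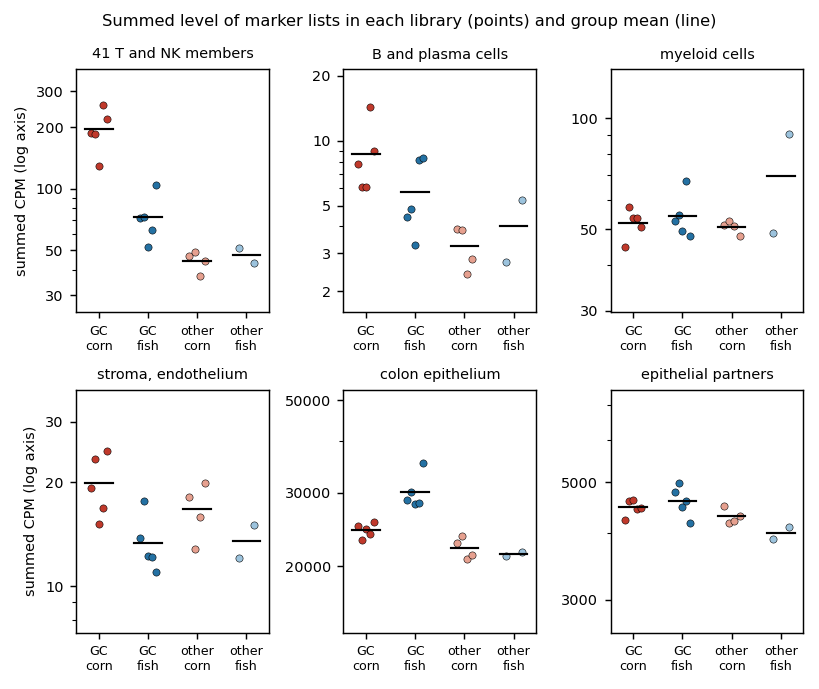
Summed CPM (log axis) of 6 gene lists in each library (points) with the arithmetic group mean (line), by name form and diet. The members are at 129 to 256 CPM in GC-named corn oil/cellulose libraries and at 104 CPM or less in all others, while the epithelial sum is highest in the GC-named fish oil/pectin libraries.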

How the data were processed

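Raw read counts per gene symbol, 1 column per library and not normalised, were deposited by the authors. STAR 2.6.0a, HTSeq 0.11.1 and GRCm38 were used, per the submitters' processing notes. For the strand setting and the annotation release, the sources used here say nothing, so overlapping genes on opposite strands, and near-identical genes, may share reads. Library totals were 13996288 to 19512755 counts, and 0 per-sample columns were left unused. Identifiers, coordinates and exon lengths came from GENCODE M21, where 98.7% of symbols matched 1 gene.

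The counts were fitted with edgeR 4.0.16 in R 4.3.3 (robust quasi-likelihood, TMM scaling, filterByExpr), with 1 coefficient for each combination of diet and name form over all 16 libraries, and p-values were Benjamini-Hochberg adjusted over the 14803 genes tested at a threshold of 0.05. Ratios used CPM + 0.5 and exact permutation tests. CPM of members are on the TMM effective library sizes. The fit was tested on simulated counts.

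Most genes shown library by library were among the highest by CPM in their role or had a call or direction that differed. Trac, Trdc and Gzmb were shown in this way without meeting that rule. Itgal, Klrk1, Laptm5 and Il2rb, whose diet effect differed between name forms, were not shown in this way. From other lists, up to 4 with the lowest p and up to 2 of the opposite direction were named, and a few others (Cdh1, Ccl25 and Bcl11b among them) were named after their values were seen. Some genes of these lists are not reported here. The members and lists were chosen with earlier results of these data known. Alternatives were DESeq2 1.42.0, limma 3.58.1 (voom), other scalings, filters and covariates, and libraries left out. Comparisons of name forms within a diet, of 1 sex alone, and without a pair of libraries were added after seeing the data. No pair of libraries of 1 group agreed within sampling noise over 27 pairs.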

Additional observations from a re-analysis of the deposited data

Results flagged for a closer look

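In 7 of 111 groups of 4 or 5 libraries, 1 library stood far from the rest of its group. A rule of this kind marks about 1 in 20 groups by chance. In the GC-named fish oil/pectin libraries these were Gzma at 7.82 CPM and Trdc at 2.66 CPM, both in library 7, and Cd27 at 0.480 CPM in library 3. In the GC-named corn oil/cellulose libraries it was Ccr9 at 0.907 CPM in library 8. In the corn oil/cellulose libraries with other names they were Gzmb at 1.60 CPM in library 2, Runx3 at 0.700 CPM in library 1 and Ptprc at 4.07 CPM in library 3, the last being a low value. Fish oil/pectin library 7 was also the library with 11 counts of Hoxd13.

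The diet effect differed between the GC-named and the other libraries for 10 members by edgeR's test of the difference itself. The differences in log2 fold change, GC-named minus other, were -3.90 for Klrk1 (which had 0 to 3 counts in each corn oil/cellulose library with another name), -2.31 for Cd247, -2.26 for Il2rb, -2.16 for Thy1, -2.09 for Itgal, -2.06 for Ptprc, -1.92 for Laptm5, -1.80 for Itgae, -1.55 for Lat and -1.45 for Klrd1.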

How the results depend on the processing

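The count of 35 lower members in the GC-named libraries was 35 with DESeq2, limma's voom and 5 other settings of scaling or length, and 32 to 36 on leaving out each library. With male libraries only, the members' median log2 fold change was -1.57. A single diet effect over all 16 libraries, with no term for the name form, called 9 members lower (14.9% of all genes lower). Its median over the members was -1.10, and -1.11 with the name form as a term. That effect also covers the 6 other libraries, so it is not another value for the GC-named libraries. Within the GC-named libraries, the median of -1.54 became -1.86 when libraries were scaled to epithelial markers. This scaling put the median of all genes at -0.30 and called 43.9% of all genes lower and 5.2% higher. Total count scaling put that median at -0.12, with 4432 genes lower and 2223 higher of 14803. In the other libraries the median of 0.0436 was -0.0649 with numbers beginning with 7 only and -0.0938 to 0.137 on leaving out 1 library. The count of 10 members whose effect differed between name forms was 0 with numbers beginning with 7 only and 0 with male libraries only, where 0 of all genes were called. It was 16 with total count scaling, 19 with limma's voom and 24 with epithelial scaling, beside 7.44%, 6.93% and 21.1% of all genes lower, and 1 to 16 on leaving out 1 library. Its median was -1.83 with epithelial scaling. The share of all genes lower also moved with the library left out, such as 2.1% without corn oil/cellulose library 8 and 5.48% without fish oil/pectin library 7. No member changed sign in a called value.

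Replicate numbers are shared between diets, but same-numbered libraries did not deviate together (correlations of -0.12 to 0.26 over 7 numbers), so the numbers do not pair the libraries. With the replicate number as a block, 22 members were lower in the GC-named libraries (17.2% of all genes) with a median of -1.18, the median in the other libraries was -0.0820, and the difference between forms had 0 members and 0 of all genes called and a median of -1.15. Depth limits Cd8b1, Cd4, Cd5 and Cd28, which had at most 10 counts per library.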

Other observations

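Variable segments of the T cell receptor genes, which are no members, were counted as sums over their symbols in the count table. Beta chain V segments (35 symbols) summed to 245 counts in the 5 GC-named corn oil/cellulose libraries, 52 in the 5 GC-named fish oil/pectin libraries, 35 in the 4 other corn oil/cellulose libraries and 15 in the 2 other fish oil/pectin libraries. Gamma chain V segments (6 symbols) summed to 147, 44, 27 and 13 counts, alpha chain V segments (128 symbols) to 54, 10, 5 and 5, and delta chain V segments (6 symbols) to 23, 21, 9 and 3. Library by library, the beta sums were 39, 46, 22, 86 and 52 in the GC-named corn oil/cellulose libraries and 8, 11, 11, 13 and 9 in the GC-named fish oil/pectin libraries, which did not overlap. The delta sums were 3, 1, 2, 5 and 12 and 1, 6, 1, 3 and 10, which overlapped. No test was run on these sums.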
